A study of Mus musculus with 6 samples.

Results

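The Iroquois homeobox genes Irx1, Irx2, Irx3, Irx4, Irx5 and Irx6 were followed on 6 Affymetrix expression arrays of RNA from mouse dental pulp. All probe sets whose platform gene symbol is a member were taken. These were 6 probe sets, 1 for each gene, of 34958 probe sets with a single symbol. Control mice were labelled Ring1a-/-;Ring1b flox/flox;CreERT2 and received corn oil, and Ring1 deletion mice were labelled Ring1a-/-;Ring1b cko/cko;CreERT2 and received 40 mg/kg 4-hydroxytamoxifen. Injections were at postnatal days 9 and 13, and pulp was collected at day 17. There were 3 arrays per group, each labelled as a biological replicate, and the labels do not pair arrays of the same number. All mice of both groups therefore lacked Ring1a, drug and deletion differed together, and the driver of CreERT2 and the number of mice behind an array are not stated in the labels.

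Iroquois proteins are transcription factors of the TALE class, whose homeodomain carries a short extra loop that is also found in the Meis, Pbx, Pknox, Tgif and Mkx proteins. In the mouse genome they lie in 2 clusters, Irx1, Irx2 and Irx4 on chromosome 13 and Irx3, Irx5 and Irx6 on chromosome 8, with no other protein-coding gene inside either cluster in the RefSeq gene table. The clusters arose by duplication, and the genes pattern the heart, limb, retina and facial skeleton of the embryo. Their promoters are known targets of Polycomb repression in embryonic stem cells. The ubiquitin ligases of Polycomb repressive complex 1 are Ring1a, whose symbol is Ring1, and Ring1b, whose symbol is Rnf2.

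Between 53.8% and 57.9% of probe sets were called Present per array. The Rnf2 probe set with the highest signal read 2693, 2440 and 2233 in control and 3165, 3550 and 2831 in deletion, and the other Rnf2 probe set Present on all arrays was also not lower in deletion. Their position with respect to the floxed exons is not known here, so they do not check the labels. All 10 pulp and odontoblast markers named on the array were called Present on all 6 arrays, but so were all 11 markers of dental epithelium, whose summed signal ran from 105875 to 147369 in control and from 50333 to 192711 in deletion. The probe sets taken for the muscle regulators Myod1 and Myog were Present on no array, each marker being read by its probe set of highest signal. The arrays numbered 1 stood apart in RNA quality. The ratio of the 3' to the 5' probe set of Actb, which rises as RNA is read mainly from its 3' end, was 6.47, 1.95 and 1.83 on control arrays 1, 2 and 3 and 3.69, 1.97 and 1.89 on the deletion arrays. The column names of the detection calls also take another form for 1 array of each group, without giving replicate numbers.

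Of the 6 genes, 5 were detected on the arrays of both groups and none of these passed the test for a change. Since markers of dental epithelium were also Present on all arrays, detection does not place a gene in pulp cells. Irx1, Irx2, Irx3, Irx5 and Irx6 were each called Present on 3 of 3 control and 3 of 3 deletion arrays, whereas Irx4 was called Present on none. Among the 5 tested genes 4 had a higher and 1 a lower mean in deletion. Their median log2 change was 0.53, against 0.02 over all 12250 genes tested. In limma, 325 of the 12250 genes changed at an adjusted p under 0.05, which is 2.65%, against 0 of the 5 Iroquois genes. At an unadjusted p under 0.05 there was 1 of the 5, Irx3, and 15.2% of all genes tested. With the replicate number as a block, 1 of the 5 passed, Irx2, and 10.6% of all genes tested. The groups did not overlap for 1 of the 5, and for 20.8% of all genes tested. The summed signal of 5 adipocyte markers ran from 686 to 944 in control and from 1546 to 2665 in deletion. Most of it was Fabp4, which read 493, 477 and 794 in control and 1193, 2189 and 2349 in deletion. Fabp4 was the 1 of the 5 that was Present on all arrays, and Adipoq, Cidec and Lep were Present on none, so the sum is largely that of a single gene. The cartilage collagen gene Col2a1 was Present on no control and on 3 of 3 deletion arrays, at a signal at least 10.7-fold higher in deletion, and it is given without a test because it passed the detection filter through the deletion arrays alone. The sum of 6 cartilage markers overlapped between the groups, at 3641 to 9866 and 4859 to 9588. Its largest part was Col11a2, at 7514, 5129 and 2497 in control and 5886, 3338 and 2644 in deletion, so the sum says little of the others. The log2 differences were -0.30 for Col11a2, -0.02 for Hapln1 and 1.45 for Col9a1, and none of these passed (limma adjusted p = 0.819, 0.991 and 0.121). The part of these cells in the Iroquois values was not tested. In bulk tissue fewer cells of a type and less RNA per cell cannot be told apart.

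**Figure D1:**
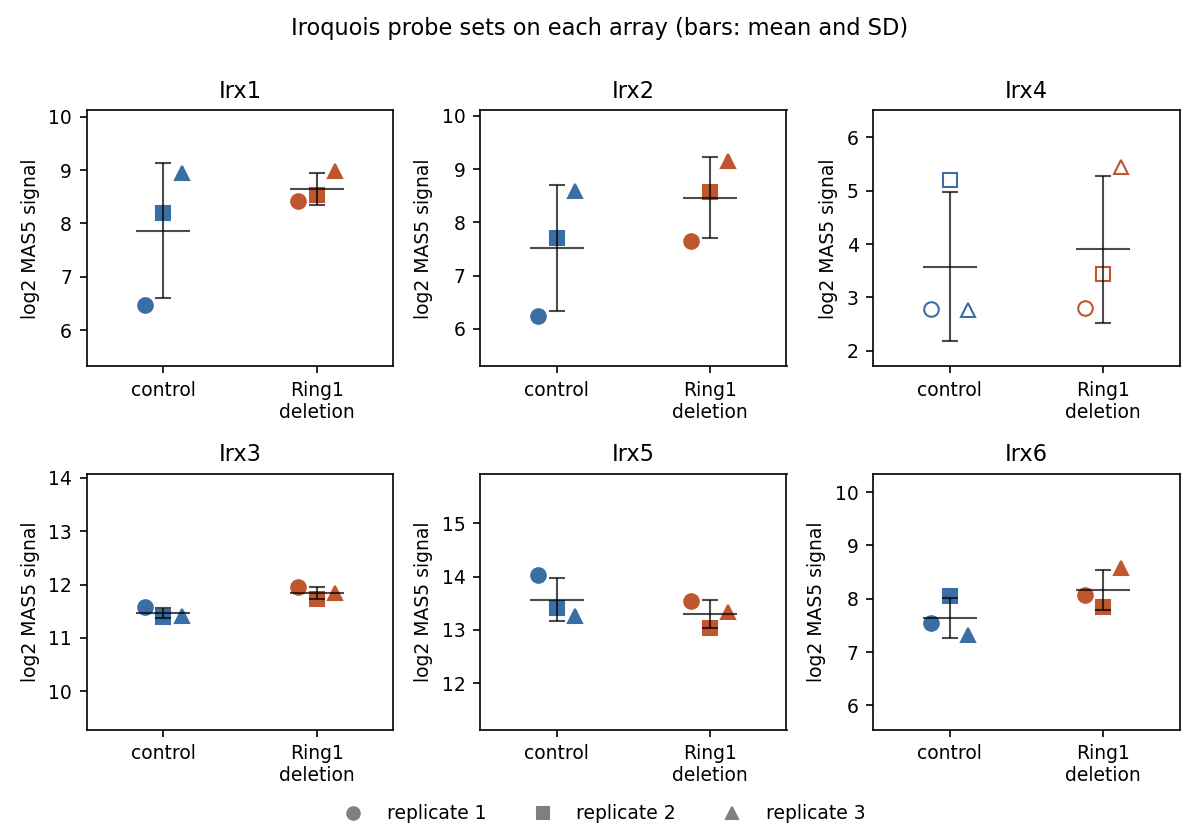
Log2 MAS5 signal (vertical axis, each panel spanning the same number of log2 units) of the probe set of each Iroquois gene on the 3 control and 3 Ring1 deletion arrays, with symbols for the replicate number and bars for the group mean and SD. Open symbols mark Irx4, called Present on no array. Irx3 is the gene whose deletion arrays all lie above its control arrays.

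The genes of the chromosome 8 cluster are described first. Irx3 acts in limb and bone patterning and in the conduction system of the mouse heart. Its probe set gave MAS5 signals of 3057, 2702 and 2727 on control arrays 1, 2 and 3 and of 3986, 3412 and 3665 on the deletion arrays. All deletion arrays lay above all control arrays, the lowest deletion signal being 1.12 times the highest control signal. Mean log2 signals were 11.46 ± 0.10 and 11.85 ± 0.11 (SD, 3 control and 3 deletion arrays). Deletion was thus 0.38 ± 0.15 (SE) higher on the log2 scale, or 1.30-fold, with a 95% interval of 0.03 to 0.73. This missed the threshold (limma adjusted p = 0.276). Over all genes tested, 12.2% had deletion arrays that all lay above the control arrays, so such a separation in 1 of 5 genes is near the background. The log2 difference between arrays of the same number was 0.38, 0.34 and 0.43 for numbers 1, 2 and 3, the narrowest range among the 5 detected members.

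Irx5, the neighbour of Irx3, shapes the repolarization gradient of the ventricle and the bipolar cells of the retina in the mouse. Its probe set read 16780, 10910 and 9811 on the control arrays and 11967, 8344 and 10287 on the deletion arrays. The groups overlapped, and the highest array was control replicate 1. Mean log2 signals were 13.57 ± 0.41 in control and 13.30 ± 0.26 in deletion (SD, n = 3). The log2 difference of -0.27 ± 0.23 (SE) did not pass (limma adjusted p = 0.677; 95% interval -0.79 to 0.25). Without control replicate 1 it was -0.04, without deletion replicate 2 it was -0.13 and without control replicate 3 it was -0.42.

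Irx6, the last gene of the cluster, is known from bipolar cells of the mouse retina. Its probe set gave 187, 267 and 160 on the control arrays and 269, 231 and 382 on the deletion arrays. Control replicate 2 lay above deletion replicate 2, so the groups overlapped. The log2 difference was 0.53 ± 0.29 (SE; limma adjusted p = 0.451; 95% interval -0.12 to 1.17), and the differences between arrays of the same number were 0.53, -0.21 and 1.26. Without deletion replicate 3 the log2 difference was 0.32.

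In the chromosome 13 cluster, Irx1 and Irx2 were detected in every sample and Irx4 in none. Irx1 is known from the developing lung and from the epithelium of the mouse tooth germ. Its probe set read 88.0, 293 and 490 on the control arrays and 344, 369 and 505 on the deletion arrays. The control arrays were spread over 5.57-fold and the deletion arrays over 1.47-fold, and control replicate 1 was the lowest of all. Mean log2 signals were 7.86 ± 1.27 and 8.64 ± 0.30 (SD, 3 control and 3 deletion arrays). The 1.72-fold higher deletion mean, 0.78 ± 0.53 (SE) on the log2 scale, missed the threshold (limma adjusted p = 0.572), with a 95% interval of -0.42 to 1.98. Between arrays of the same number it was 1.96, 0.33 and 0.04. The value rested on single control arrays: it was 0.08 without control replicate 1 and 1.32 without control replicate 3, and 0.19 without both replicate 1 arrays.

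Irx2, expressed beside Irx1 in many embryonic tissues, had signals of 75.7, 210 and 387 in control and of 201, 380 and 572 in deletion. The groups overlapped, with the control arrays spread over 5.11-fold and the deletion arrays over 2.85-fold. The deletion array was higher than the control array of the same number each time, by 1.41, 0.86 and 0.56 on the log2 scale. Mean log2 signals were 7.52 ± 1.19 in control and 8.46 ± 0.76 in deletion (SD, n = 3). The log2 difference of 0.94 ± 0.57 (SE) did not pass (limma adjusted p = 0.512; 95% interval -0.34 to 2.23), but with the replicate block it did, at 0.94 ± 0.23 (SE; limma adjusted p = 0.0293). That block called 1302 genes in all. Without control replicate 1 the log2 difference was 0.31, without control replicate 3 it was 1.48, without deletion replicate 3 it was 0.59 and without both replicate 1 arrays it was 0.71.

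**Figure D2:**
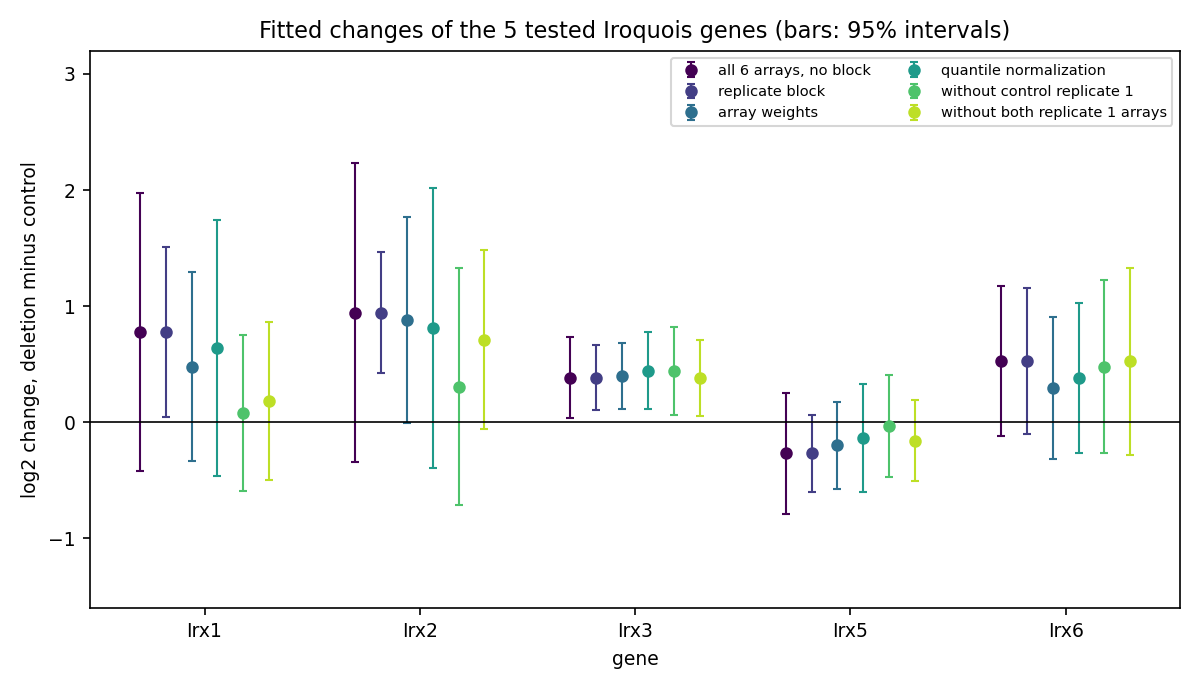
Fitted log2 change, deletion minus control (vertical axis), of the 5 tested Iroquois genes with 95% intervals, under the fit with all 6 arrays and 5 alternatives. The Irx3 points lie close together between 0.38 and 0.44, while Irx1 moves from 0.78 to 0.08 when control replicate 1 is left out.

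Irx4, a gene of the cardiac ventricle, had signals of 6.84, 36.7 and 6.80 in control and of 6.98, 10.9 and 43.8 in deletion. It was not detected in either group, so no fold or test is given. The lowest signal of probe sets Present on all 3 arrays of a group ran from 10.5 to 15.5 over the arrays.

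The RefSeq promoter table (build GRCm38.p6) held an entry for 3 of the 6 genes, Irx2, Irx3 and Irx4. They are shown because Irx2 and Irx3 were detected on every array and Irx4 on none. Each runs from 250 bases before to 50 bases after the annotated start, 5′ to 3′ on the strand of the gene, and capitals mark the dinucleotide CG, which reads the same on both strands.
Irx2, chr13:72628570-72628869, plus strand: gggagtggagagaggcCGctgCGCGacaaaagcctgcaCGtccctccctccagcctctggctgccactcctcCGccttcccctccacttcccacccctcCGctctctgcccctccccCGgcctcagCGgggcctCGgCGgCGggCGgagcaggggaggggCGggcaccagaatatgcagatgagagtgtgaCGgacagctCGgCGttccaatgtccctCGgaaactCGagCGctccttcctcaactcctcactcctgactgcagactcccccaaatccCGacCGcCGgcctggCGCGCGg
Irx4, chr13:73260247-73260546, plus strand: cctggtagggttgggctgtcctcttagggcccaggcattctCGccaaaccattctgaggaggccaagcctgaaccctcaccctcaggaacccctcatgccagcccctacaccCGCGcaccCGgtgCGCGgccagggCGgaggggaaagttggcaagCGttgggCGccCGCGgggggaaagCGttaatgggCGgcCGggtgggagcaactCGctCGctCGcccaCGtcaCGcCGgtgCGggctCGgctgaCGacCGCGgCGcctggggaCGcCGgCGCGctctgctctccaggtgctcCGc
Irx3, chr8:91801605-91801904, minus strand: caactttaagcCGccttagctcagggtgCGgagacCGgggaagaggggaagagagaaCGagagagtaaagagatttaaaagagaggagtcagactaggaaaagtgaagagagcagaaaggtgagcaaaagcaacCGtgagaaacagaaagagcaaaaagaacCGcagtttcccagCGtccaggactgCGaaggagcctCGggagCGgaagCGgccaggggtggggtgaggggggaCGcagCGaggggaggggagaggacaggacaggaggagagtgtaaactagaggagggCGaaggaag
The undetected Irx4 held 31 CG dinucleotides, Irx2 held 25 and Irx3 held 14. Of the 32851 promoters of that length in the table, 94.6% held at least 1, with a median of 7. At least as many as in Irx4, Irx2 and Irx3 were found in 10.6%, 18.4% and 36.3% of them. These counts describe the letters in the window and say nothing of binding.

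Across the 6 arrays the signals of Irx1 and Irx2, the detected members of the chromosome 13 cluster, ran in parallel. Pearson's r between the log2 signals of Irx1 and Irx2 was 0.94 (exact permutation p = 0.00417, adjusted p = 0.0417 over the 10 pairs of detected members; Spearman's rho = 0.94, exact permutation p = 0.0167, adjusted p = 0.167). The permutation treats the 6 arrays as exchangeable. However, the arrays numbered 1 deviated together over all genes (r = 0.485), and those numbered 2 and 3 less so (0.189 and 0.286). Both genes were also lowest on array 1 and highest on array 3 in each group, so these p are likely too small. After leaving out the 2 arrays farthest from the median of Irx1, r was 0.78, and without the replicate 1 arrays it was 0.89. With the group means removed it was 0.93, a value in which the contrast of deletion and control has no part. Irx5 had r = -0.86 with Irx1 (exact permutation p = 0.0542, adjusted p = 0.181; rho = -0.71, exact permutation p = 0.136, adjusted p = 0.454) and r = -0.88 with Irx2 (exact permutation p = 0.0306, adjusted p = 0.153; rho = -0.77, exact permutation p = 0.103, adjusted p = 0.454). Leaving out the 2 arrays farthest from the median of Irx1 or Irx2 gave -0.38 and -0.87 for these pairs. Leaving out the replicate 1 arrays gave -0.10 and -0.31, and removing the group means gave -0.83 and -0.85. Both values were thus weaker without the replicate 1 arrays, but that of Irx2 and Irx5 was not weakened by leaving out the 2 farthest. Neither of these pairs passed, nor did any of the other 7.

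Within the chromosome 8 cluster, Irx3 and Irx5 had r = -0.04 over all 6 arrays (exact permutation p = 0.949, adjusted p = 0.949; rho = 0.09, exact permutation p = 0.919, adjusted p = 1). With the group means removed, r between them was 0.94, a description over 6 arrays. Without the replicate 1 arrays it was -0.41, with the group means left in. In both groups Irx3 and Irx5 were highest, and Irx1 and Irx2 lowest, on the array numbered 1. Irx1 lay 1.41 below its control mean and 0.22 below its deletion mean there, on the log2 scale. Irx5 lay 0.47 above its control mean and 0.25 above its deletion mean. Irx6 followed neither pattern, its lowest array being control replicate 3 in control and deletion replicate 2 in deletion.

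Other values also set the arrays numbered 1 apart, beside the Actb ratios given above. The summed signal of 6 endothelial markers was 1122, 2766 and 2097 in control and 1723, 2007 and 2357 in deletion, lowest on replicate 1 in each group. In deletion this order came mainly from Emcn, at 448, 772 and 1044. Pecam1 was also lowest on deletion replicate 1, but Cdh5, Kdr, Tie1 and Tek were not, and Tek was highest there, at 338, 312 and 283. Of those 6 markers 4 were Present on all arrays and none was Present on no array. The sum over the 4 named of 6 listed markers of neurons and Schwann cells was 201, 236 and 323 in control and 141, 250 and 321 in deletion, again lowest on replicate 1, with 1 of the 4 Present on all arrays and Snap25 on none. The sums of other lists were highest on replicate 1 in each group, as Irx3 and Irx5 were, although not every member was. The sum of 6 cartilage markers was 9866, 6605 and 3641 in control and 9588, 6858 and 4859 in deletion, with 3 of the 6 Present on all arrays. The sum of 5 macrophage and blood markers, all Present on all arrays, was 11857, 10644 and 10024 in control and 14481, 9881 and 8771 in deletion. The sum of 5 bone markers, 4 of them Present on all arrays and Mepe on none, was 55314, 46303 and 39215 in control and 55672, 55212 and 54009 in deletion. On control replicate 1 the largest parts of these sums were Col11a2 (7514), Csf1r (7460) and Phex (40696). Col9a1, Hapln1, Ptprc, Cd14 and Sp7 were also highest on replicate 1 in both groups. Ibsp was lowest there, at 1017, 1530 and 1289 in control and 2017, 8346 and 5861 in deletion. Lyz2 and Cd68 were lowest on control replicate 1, and Col2a1 and Postn were not highest on deletion replicate 1. The dental epithelium sum did not set replicate 1 apart in control, at 147369, 105875 and 146912, but was lowest on replicate 1 in deletion, at 50333, 84095 and 192711. Its members differed. Krt14, Krt5, Cdh1 and Epcam each rose from replicate 1 to 3 in both groups, as Irx1 and Irx2 did. Epcam read 1533, 3385 and 4817 in control and 877, 1359 and 2203 in deletion. Amelx and Ambn, the largest parts of the control sums, were highest on control replicate 1, as were Enam and Mmp20. What part these differences have in the values of Irx1, Irx2, Irx3 and Irx5 was not tested.

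**Figure D3:**
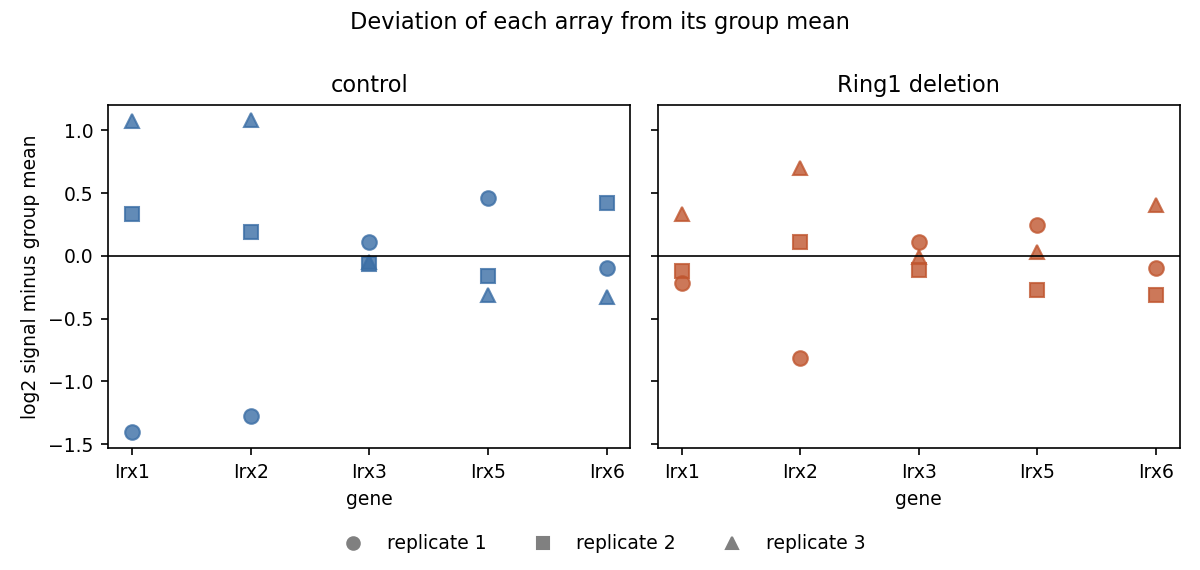
Log2 signal of each array minus the mean of its group (vertical axis) for the 5 detected Iroquois genes, control on the left and Ring1 deletion on the right, with symbols for the replicate number. Circles, the arrays numbered 1, lie lowest for Irx1 and Irx2 and highest for Irx3 and Irx5 in both panels.

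Set side by side, the detected genes of the chromosome 13 cluster had log2 differences of 0.78 and 0.94, and those of the chromosome 8 cluster 0.38, 0.53 and -0.27. Both values of the first cluster lay above those of the second, with 95% intervals that overlapped between all 5 genes. Without control replicate 1 this order was lost, the values being 0.08 and 0.31 against 0.44, 0.48 and -0.04. The difference between the clusters was not tested, since a score over chosen members would carry no valid p. The control SD on the log2 scale was 1.27 and 1.19 for Irx1 and Irx2, and 0.10, 0.41 and 0.38 for Irx3, Irx5 and Irx6. In deletion the SDs, in the same order, were 0.30, 0.76, 0.11, 0.26 and 0.37, with Irx1 below Irx6. The difference in spread was not tested, and in control Irx1 lay farthest from its mean on replicate 1, the array with the Actb ratio of 6.47.

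Of 12 other TALE genes listed, 11 were named on the array and 9 entered the fit, Meis2 among them. Meis2, a cofactor of Hox proteins, passed the detection filter through the deletion arrays, so its values are given as a description with no test. Its probe set read 46.0, 42.2 and 2.0 in control and 466, 423 and 553 in deletion, with a Present call on 1 control array and on all deletion arrays. Control replicate 3 was far below the other control arrays, and the deletion arrays all lay above the control arrays. None of the other TALE genes passed the test. In Meis1, Meis3 and Pbx3 all deletion arrays lay above all control arrays, where 12.2% of all genes tested did so. The log2 difference was 1.01 ± 0.40 for Meis1 and 0.63 ± 0.27 for Meis3 (SE, limma adjusted p = 0.268 and 0.309). Pbx3, a DNA-binding partner of Hox and Meis proteins, had a difference in log2 signal of 0.79 ± 0.19 (SE; limma adjusted p = 0.069), and the replicate block gave a limma adjusted p of 0.00513. Mkx, a tendon factor related in sequence to the Iroquois proteins, read 586, 276 and 255 in control and 744, 487 and 402 in deletion, overlapping groups with a difference in log2 signal of 0.61 ± 0.35 (SE; limma adjusted p = 0.488). Whether Meis2 and the Iroquois genes differed in their change was not tested.

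None of the tested protein-coding genes beside the clusters passed the threshold in the main fit of all 6 arrays. Of the 12 nearest, 3 on each side of each cluster, 9 were named on the array and 8 were tested, 6 with higher and 2 with lower means in deletion and a median log2 change of 0.12. Among these 8, all deletion arrays of Mmp2 and Lpcat2 lay above all control arrays, where 12.2% of all genes tested did so. Adamts16, described below, is left out of this comparison. Mmp2, a matrix metalloproteinase that follows Irx6 on chromosome 8, read 7034, 5941 and 4559 in control and 13846, 8800 and 8873 in deletion. The mean was 0.83 ± 0.23 (SE) higher on the log2 scale, which missed the threshold (limma adjusted p = 0.106) but passed under the replicate block (limma adjusted p = 0.00468). Fto, whose introns hold distant enhancers of Irx3 and Irx5, had a difference in log2 signal of 0.02 ± 0.17 (SE; limma adjusted p = 0.985). Crnde, a long noncoding RNA that lies next to Irx5, read 363, 592 and 820 in control and 483, 823 and 779 in deletion, with a difference in log2 signal of 0.27 ± 0.32 (SE; limma adjusted p = 0.782). Adamts16 was Present on 1 control and 2 deletion arrays, so it passed the detection filter only with the deletion arrays counted. It is among the 6 with higher means and in the median above. Its deletion arrays all lay above its control arrays, which is given as a description. The other Adamts16 probe set, Present on none, ran the other way, at 456, 181 and 315 in control and 165, 113 and 227 in deletion.

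Genes that Iroquois factors are tied to in other mouse or frog tissues were mostly undetected or did not pass. Of 17 listed, 15 were named on the array and 10 tested, with 0 risen and 1 fallen, where 0.759% of all genes tested fell, and with a median log2 change of 0.24. The gene that fell was Shh, the Hedgehog ligand of the dental epithelium, at -2.12 ± 0.31 (SE; limma adjusted p = 0.00931). Kcnd2, Bmp10 and Gja5, cardiac genes controlled by Irx3 or Irx5, were Present on no array, and so was Gata3, which encodes a partner of Irx5 in the facial skeleton and read 2.15, 1.96 and 3.37 in control and 74.3, 61.6 and 86.9 in deletion. Cxcl12, a chemokine that Irx5 represses in the frog embryo, read 4085, 1407 and 1287 in control and 8141, 4799 and 3285 in deletion. For this probe set of highest signal the groups overlapped, with a difference in log2 signal of 1.37 ± 0.45 (SE, limma adjusted p = 0.173). Under the replicate block limma gave an adjusted p of 0.000894. Another Cxcl12 probe set Present on all arrays read 707, 451 and 403 in control and 1955, 1558 and 1215 in deletion. Its groups did not overlap, and its log2 difference was 1.62. Gli3, a Hedgehog effector that acts with Irx3 and Irx5 in limb patterning, had a deletion mean 0.55 ± 0.16 higher in log2 (SE; limma adjusted p = 0.128), and Trps1, another partner of Irx5, a mean 0.70 ± 0.30 higher (SE; limma adjusted p = 0.303). With the replicate block these adjusted p were 0.0363 and 0.0195. Sox9, the cartilage factor, differed by 0.21 ± 0.23 (SE; limma adjusted p = 0.771).

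**Figure D4:**
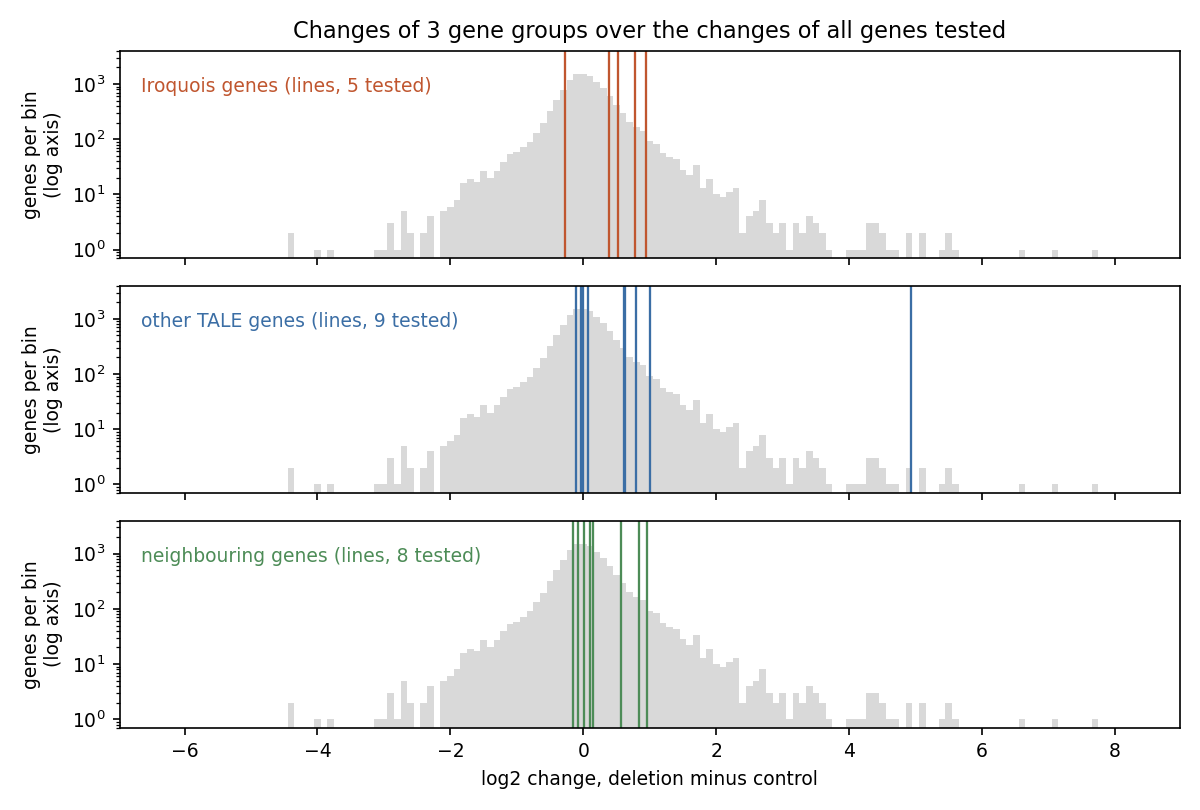
Number of genes per bin of log2 change (vertical axis, log scale) against the log2 change, deletion minus control, for all 12250 genes tested in grey, with lines at the 5 tested Iroquois genes, the 9 other TALE genes and the 8 neighbouring genes. The Iroquois lines lie between -0.27 and 0.94, and the line farthest right among the TALE genes is Meis2, drawn at its fitted value although 2 of its 3 control arrays had no Present call.

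For each detected member the 3 tested genes with the most similar profile were taken by Pearson's r of log2 signals over the 6 arrays, as a description. Irx1 was most like 2810039B14Rik (r = 0.999), Ppp4r3a and Proser1. Irx2 was most like Fgf7, a growth factor for epithelium (r = 0.996), the anchoring protein gene Akap8 and Tmem81. Irx3 was most like Antxr1, a collagen-binding receptor (r = 0.996), Fndc10 and the proton pump gene Tcirg1. Irx5 was most like Eml6 (r = 0.997), the survival gene Bcl2 and Ninj1, and Irx6 was most like Upp1 (r = 0.993), Vmp1 and Usp30. None of these 15 genes passed the test (limma adjusted p from 0.155 for Antxr1 to 0.872 for Vmp1), and Antxr1 passed with the replicate block (limma adjusted p = 0.036).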

How the data were processed

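The deposited values are MAS5 signals, an intensity per probe set that is not on a log scale, per the submitters' processing notes. Per the labels' protocols, RNA was amplified in repeated rounds and labelled with biotin, and amplification can alter relative levels. The 2% trimmed mean was 500.003 on each array. MAS5 detection calls, also deposited, were used by group, since their columns carry no replicate number, and 12 further columns were not used here. In the platform annotation 34958 probe sets had 1 symbol, 932 several and 9211 none.

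A floor of 1 was applied before taking log2. Probe sets with 1 symbol and Present on at least 3 of 6 arrays were kept (21614), leaving out 64 array controls, and each of 12250 genes was represented by its kept probe set of highest mean. Deletion was tested against control with limma 3.58.1 (R 4.3.3; eBayes with an intensity trend, two-sided, Benjamini-Hochberg over all genes, threshold 0.05), a procedure tested on simulated data. Correlations used exact two-sided permutation of arrays (SciPy 1.17.1). The number of arrays limits the precision, and p-values reflect only the variation among these replicates. Members and lists (other TALE genes, neighbours, genes tied to Iroquois factors, cell type markers) were chosen with earlier results of these data known. The text names these, the targeted genes and the 3 genes most like each member.

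Of the remaining marker lists, 4 of 5 bone, 2 of 6 muscle and 5 of 5 macrophage and blood markers named on the array were Present on all 6 arrays. For the pairing check, each array's deviation from its group mean was correlated across genes: the values for numbers 1, 2 and 3 were 0.485, 0.189 and 0.286, all over 0.1, so the replicate block was fitted as an alternative. Control 3 with deletion 2 gave 0.213 and control 2 with deletion 3 gave 0.117. Both of these unmatched values were also over 0.1, and the first was above that of number 2. The block was thus chosen from these same data, and its adjusted p do not show that the arrays were paired. Alternatives changed the scaling, floor, filter, probe set rule, variance model, weights and arrays. The software version is not given in the sources used here.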

Additional observations from a re-analysis of the deposited data

How the results depend on the processing

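Over 17 alternatives the 5 tested Iroquois genes kept their direction in 85 of 85 fits. With 1 probe set per gene, changing the filter, the probe set rule, the variance model or the block could not alter the log2 difference. The other alternatives reused the same arrays, so these are not 85 independent checks. Of the 85 fits 1 passed the test, Irx2 with the replicate block (0.94 on the log2 scale, limma adjusted p = 0.0293). Thus 1 Iroquois gene rose there against 0 otherwise, and the block changed the call of no other member. The lowest and highest log2 difference over the alternatives were 0.08 and 1.32 for Irx1, 0.31 and 1.48 for Irx2, 0.32 and 0.44 for Irx3, -0.42 and -0.04 for Irx5, and 0.30 and 0.74 for Irx6. The adjusted p of Irx3 ran from 0.086 with array weights to 0.633 without control replicate 2. The cause of these moves was not tested. Over all genes, 325 changed (232 higher, 93 lower); 1302 with the replicate block (789 and 513), 1106 with array weights (691 and 415), 500 without both replicate 1 arrays (333 and 167) and 204 among genes Present on all 6 arrays (137 and 67), where 10570 genes were tested. Without an intensity trend 51 fell. Leaving out each array in turn gave 94 to 300 changed genes, 82 to 219 higher and 12 to 90 lower; the count moved by over 1.5 times without control replicate 2 (94), control replicate 3 (188), deletion replicate 2 (196) and deletion replicate 3 (148). Among the other TALE genes, with Meis2 left out because no test is given for it, Pbx3 passed in 3 of the 16 alternatives that gave it a single value. Signals near the detection floor limit what can be said of Irx4, and the wide control spread limits Irx1 and Irx2.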
